A study of Rattus norvegicus with 4 samples.

Results

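Genes of glutathione conjugation and redox metabolism, 9 in number, were followed in the immortalized rat fibroblast line Rat1: the glutathione transferases Gstt1, Gstt2, Gstp1, Gstm1 and Gstm2, the glutathione synthesis gene Gclc, and the redox enzymes Hmox1, Nqo1 and Cyb5a. They are represented by 18 of the 8740 probe sets of the Affymetrix RG-U34A array, control probe sets left out, taken as every probe set whose only gene symbol in the platform annotation is one of these names. The annotation names 4736 genes in all. The genes were chosen by their values on these same arrays, so every difference below is a description with no test. Omomer cells carry a retrovirus for Omomer, a fusion of the Myc-interfering miniprotein Omomyc to a tamoxifen-responsive part of the estrogen receptor, and control cells carry the empty retrovirus. All cells were given 4-OHT, the ligand that switches Omomer on. Each line was kept for 48 h in 0.1% serum and taken either 90 min after a change to 10% serum, called stimulated here, or at 0 min, called starved. The labels place 4-OHT in the medium during starvation as a whole, whereas the methods place its addition shortly before serum. The 4 conditions, stimulated and starved Omomer cells and stimulated and starved control cells, had 1 array each, and no difference could be set against the spread between cultures. A label field of the starved Omomer and stimulated control samples names the other line, and their titles were followed. In RNA of whole cultures, fewer expressing cells and less RNA per cell cannot be told apart.

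Glutathione transferases attach glutathione, a small thiol peptide, to reactive and foreign compounds, and fall into classes that include theta (Gstt), pi (Gstp) and mu (Gstm). Its synthesis starts with a rate-limiting step, carried out by glutamate-cysteine ligase, whose catalytic subunit is encoded by Gclc. Nqo1, a quinone reductase, Hmox1, the inducible heme oxygenase, Gclc and several transferases are textbook targets of the stress-activated transcription factor Nrf2, which binds the antioxidant response element, while Cyb5a encodes cytochrome b5, an electron carrier of the endoplasmic reticulum.

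RefSeq (build GRCr8) gave a promoter window, 250 bases before to 50 bases after the start site, for 6 of the 9 genes: Gstp1, Gstm1, Gstm2, Nqo1, Cyb5a and Gclc. The windows were searched on both strands for the antioxidant response element core TGACNNNGC and for the E-box CACGTG, the motif of Myc and Max. Those of Gstp1, whose values differed little between arrays, and of Nqo1, whose values differed several-fold, are printed to set a stable gene beside a variable one. The window of Gstp1 lies at chr1:210769656-210769955 on the minus strand and that of Nqo1 at chr19:52220218-52220517 on the minus strand, and capitals mark the core.
Gstp1: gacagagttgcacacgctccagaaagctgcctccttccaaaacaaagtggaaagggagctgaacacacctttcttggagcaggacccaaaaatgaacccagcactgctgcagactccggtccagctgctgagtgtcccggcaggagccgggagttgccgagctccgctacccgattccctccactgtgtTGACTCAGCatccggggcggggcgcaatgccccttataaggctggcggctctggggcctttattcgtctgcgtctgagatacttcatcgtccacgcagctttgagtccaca
Nqo1: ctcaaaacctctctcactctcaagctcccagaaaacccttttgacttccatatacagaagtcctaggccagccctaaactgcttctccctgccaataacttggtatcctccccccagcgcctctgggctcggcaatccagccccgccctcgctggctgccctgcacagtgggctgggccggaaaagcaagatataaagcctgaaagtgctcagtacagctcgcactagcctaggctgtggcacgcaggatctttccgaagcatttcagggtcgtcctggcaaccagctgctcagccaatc
Of the 6 windows, only that of Gstp1 held the core, with its first base 61 bases before the start site. The match overlaps the AP-1 motif TGACTCA, a motif added to the search after this match was seen. None of the 6 held the E-box. Among all 33469 windows of this length, 12.1% held the core, 6.4% the E-box and 4.6% the AP-1 motif. A match is a run of letters and not a measured site, and no match says only that the letters are not in this window.

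Each value is an average difference computed by MAS 4, in which the brightness of mismatch probes is taken from that of perfect match probes, in a linear intensity unit. It can be negative, and a value is read only against other values of the same probe set. The share of values below 0 ranged from 24.8% to 27.7% over the arrays. Their median size gave a robust noise SD of 524, and a floor of 1048, 2 times that SD, was set under all values before ratios were taken. Taken array by array, this noise gives floors of 1228 in stimulated and 1024 in starved Omomer cells, and of 1090 in stimulated and 895 in starved control cells. The array of stimulated Omomer cells stood apart from the others in the agreement between probe sets of 1 gene. The SD of log2 ratios within a gene was 0.74 for this array over starved control cells, against 0.32 for stimulated control cells and 0.30 for starved Omomer cells, both also over starved control cells. All 21 probe sets of 9 fibroblast marker genes, among them Col1a1, Vim and Thy1, lay above the floor on all 4 arrays, with summed values of 954975 and 712539 in stimulated and starved Omomer cells, and 847642 and 732704 in stimulated and starved control cells. In stimulated Omomer over stimulated control cells their median log2 ratio was 0.30, with 0 higher and 2 lower by 3-fold. These 2 were rc_AA875531_s_at of Col1a2, with 14174 and 55641, and rc_AA891204_s_at of Sparc, with 1538 and 8233. Both belong to 5 series of expressed sequence tags, named below, that hold most of the lower probe sets of the array of stimulated Omomer cells. Other probe sets of Sparc gave log2 ratios of 0.90 by Y13714_at, 0.47 by rc_AA892248_at and -0.50 by rc_AA946313_s_at. Of endothelial and epithelial markers, 0 of 4 and 0 of 6 probe sets lay above the floor on any array. Of hepatocyte markers, 5 of 21 did, 1 of them on all arrays. Of macrophage markers, both probe sets of Cd14 did, out of 5 in all, while Csf1r, Itgam and Lyz2 stayed below the floor. The summed macrophage list was highest in stimulated Omomer cells, with 11192, against 7006 in starved Omomer, 6867 in stimulated control and 5693 in starved control cells; its part in any result was not tested.

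Of the 18 probe sets of the members, 11 were above the floor on all 4 arrays, 4 on 3, 1 on 2 and 2 on none. Gstt1, a theta class transferase, was not measured above the floor. Its single probe set, X67654_at, had -218 in stimulated Omomer cells, -1013 in starved Omomer cells, -144 in stimulated control cells and 418 in starved control cells. The third Cyb5a probe set, rc_AA817685_at, also stayed below the floor, with values between -81 and 221.

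**Figure D1:**
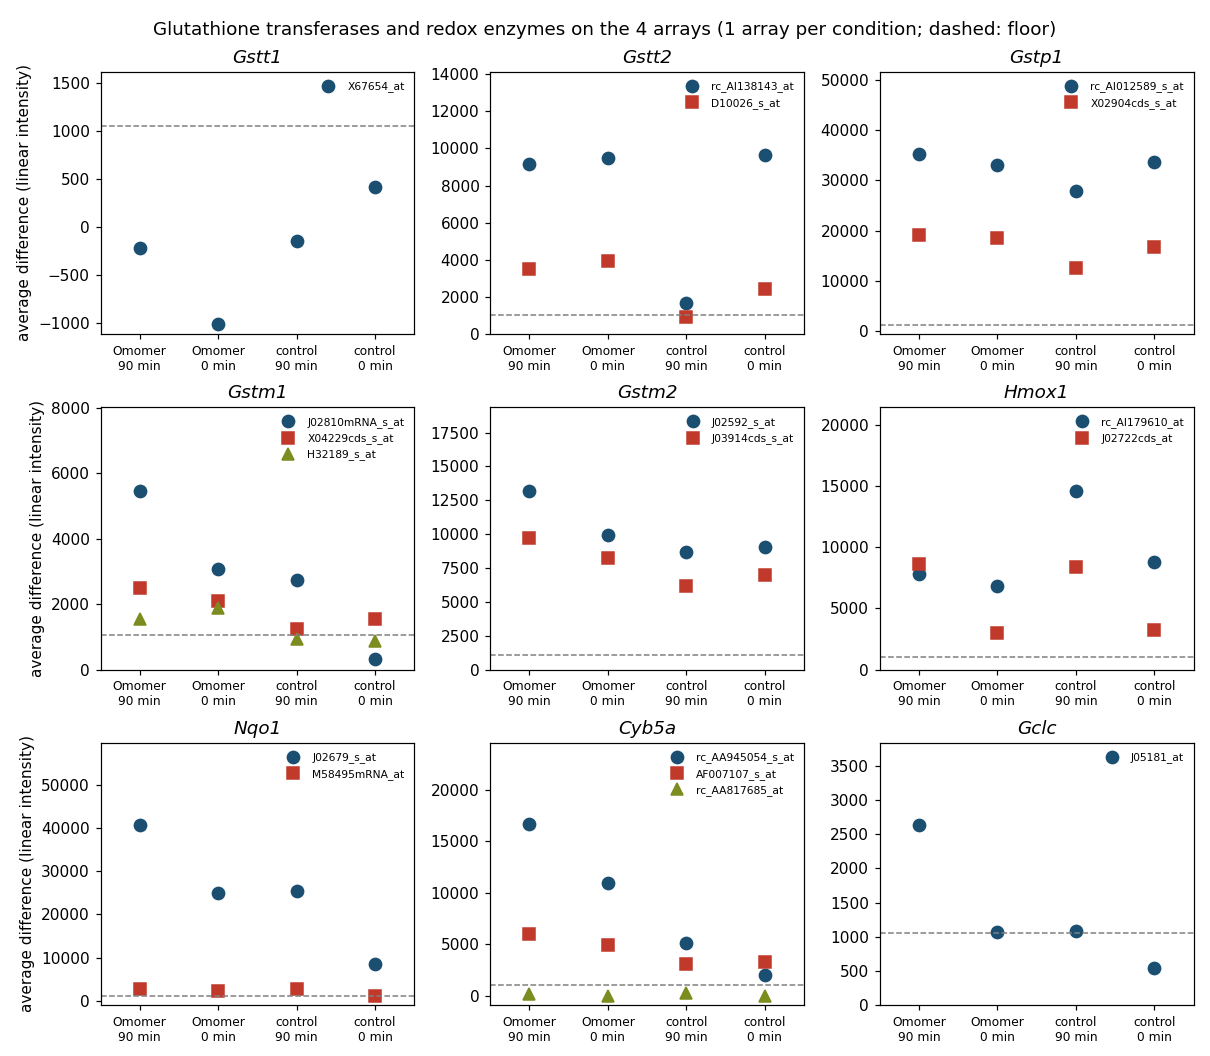
Average differences (linear axes) of all 18 member probe sets on the 4 arrays, with 1 panel per gene and 1 point per array; the dashed line is the floor of 1048 and there are no error bars, since each condition has 1 array. Gstt2 is low only in stimulated control cells, Nqo1 is low in starved control cells, and the brightest Cyb5a probe set is higher on both Omomer arrays than on either control array.

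Gstt2, the second theta class transferase, was low on a single array. Its brighter probe set, rc_AI138143_at, had 9143 in stimulated Omomer cells, 9463 in starved Omomer cells, 1682 in stimulated control cells and 9653 in starved control cells. Both Omomer arrays thus lay within 1.06-fold of starved control cells, while stimulated control cells were 5.74-fold lower. The second probe set, D10026_s_at, had 3482 in stimulated Omomer cells, 3915 in starved Omomer cells, 937 in stimulated control cells and 2419 in starved control cells. It was also lowest in stimulated control cells, at least 2.31-fold lower than in starved control cells, a bound because 937 lies under the floor. In stimulated Omomer cells Gstt2 was accordingly 5.44-fold higher than in stimulated control cells by the first probe set and at least 3.32-fold higher by the second. With the higher of both arrays' own floors, 1228, the bound of the second was 1.50 on the log2 scale, and at a floor of 4 noise SDs 0.73, both under the 3-fold threshold. The change with serum, as a log2 ratio of 90 over 0 min, was -0.05 in Omomer and -2.52 in control cells by the first probe set, and -0.17 in Omomer and -1.21 in control cells by the second. Both probe sets therefore show lower Gstt2 with serum in the control line and little difference in the Omomer line.

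Gstp1, the pi class transferase, differed little between arrays. The probe set rc_AI012589_s_at had 35205 in stimulated Omomer cells, 33040 in starved Omomer cells, 27976 in stimulated control cells and 33633 in starved control cells. The probe set X02904cds_s_at had 19049, 18599, 12583 and 16714 on the same arrays. Both were lowest in stimulated control cells, 1.20-fold and 1.33-fold below starved control cells, and the log2 ratio of stimulated Omomer over stimulated control cells was 0.33 and 0.60. No ratio of Gstp1 reached 3-fold in any comparison.

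Of the mu class, Gstm2 was close to Gstp1 in its small ratios. Its probe set J02592_s_at had 13221 in stimulated Omomer cells, 9917 in starved Omomer cells, 8673 in stimulated control cells and 9032 in starved control cells. J03914cds_s_at had 9733, 8270, 6173 and 6996 on the same arrays. Both probe sets put the arrays in the same order, with stimulated Omomer cells highest and stimulated control cells lowest, and their log2 ratios in stimulated Omomer over stimulated control cells were 0.61 and 0.66.

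Gstm1 was measured by 3 probe sets that did not give 1 pattern. J02810mRNA_s_at had 5471 in stimulated Omomer cells, 3071 in starved Omomer cells, 2753 in stimulated control cells and 320 in starved control cells. Relative to the last of these, which lies under the floor, it was higher by at least 5.22-fold in stimulated Omomer, 2.93-fold in starved Omomer and 2.63-fold in stimulated control cells. At a floor of 4 noise SDs the bound in stimulated Omomer cells was 1.38 on the log2 scale, under 3-fold. X04229cds_s_at had 2491, 2090, 1253 and 1544 on the same arrays, and was 1.61-fold and 1.35-fold higher in stimulated and starved Omomer cells and 1.23-fold lower in stimulated control cells, all over starved control cells. H32189_s_at had 1543 and 1874 in stimulated and starved Omomer cells, and 924 and 877, both under the floor, in stimulated and starved control cells. At each time all 3 probe sets were higher in Omomer than in control cells, while with serum in the control line the first was higher, the second lower and the third without a ratio. All 5 probe sets of Gstm1 and Gstm2 have IDs that end in _s_at, the mark of the manufacturer for probes that more than 1 sequence may share, so that the signal of these paralogs cannot be fully told apart.

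Gclc, which encodes the catalytic subunit of the rate-limiting enzyme of glutathione synthesis, was highest in stimulated Omomer cells. Its only probe set, J05181_at, had 2635 in stimulated Omomer cells, 1066 in starved Omomer cells, 1086 in stimulated control cells and 547 in starved control cells. It was 2.43-fold higher there than in stimulated control cells and 2.47-fold higher than in starved Omomer cells, both under the 3-fold threshold. Relative to starved control cells it was at least 2.51-fold higher, and at a floor of 524 it passed the threshold with a log2 ratio of 2.27. The values 1066 and 1086 lie at the floor, so that no difference could be read between these arrays.

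Nqo1, the quinone reductase, had its lowest value in starved control cells by both probe sets. J02679_s_at had 40649 in stimulated Omomer cells, 24900 in starved Omomer cells, 25398 in stimulated control cells and 8409 in starved control cells. It was 4.83-fold, 2.96-fold and 3.02-fold higher on the first 3 arrays than on the last. Starved Omomer cells thus had nearly the value of serum-stimulated control cells. M58495mRNA_at had 2647 in stimulated Omomer cells, 2175 in starved Omomer cells, 2822 in stimulated control cells and 1004 in starved control cells, the last just under the floor. By this probe set the ratios were at least 2.53-fold, 2.07-fold and 2.69-fold in the same order. Both probe sets were higher with serum in control cells by 1.59 and at least 1.43 on the log2 scale, and less so in Omomer cells, by 0.71 and 0.28. They differed at 90 min, where Omomer over control gave 1.60-fold higher by the first and 1.07-fold lower by the second.

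Cyb5a, encoding cytochrome b5, had the largest ratio of all members. The probe set rc_AA945054_s_at had 16692 in stimulated Omomer cells, 10946 in starved Omomer cells, 5091 in stimulated control cells and 2043 in starved control cells. Relative to the last array it was 8.17-fold, 5.36-fold and 2.49-fold higher, and at 90 min it was 3.28-fold higher in Omomer than in control cells. AF007107_s_at had 5969, 4950, 3070 and 3230 on the same arrays, which gives 1.85-fold and 1.53-fold higher in stimulated and starved Omomer cells and 1.05-fold lower in stimulated control cells, all over starved control cells. Both probe sets were higher in Omomer than in control cells at each time, but by sizes that differed by 1.81 on the log2 scale at 0 min, against an SD within a gene of 0.30 for that comparison over 547 genes.

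Hmox1, the inducible heme oxygenase, was higher with serum in both lines by both probe sets, and at neither time more than 1.02-fold higher in Omomer than in control cells. J02722cds_at had 8609 in stimulated Omomer cells, 2982 in starved Omomer cells, 8406 in stimulated control cells and 3232 in starved control cells. With serum it was thus 2.89-fold higher in Omomer and 2.60-fold higher in control cells. The second probe set, rc_AI179610_at, had 7834, 6804, 14631 and 8762 on the same arrays, 1.15-fold higher with serum in Omomer and 1.67-fold higher in control cells. At 90 min it was 1.87-fold lower in Omomer than in control cells, where the first probe set gave 1.02-fold higher. None of these ratios reached 3-fold.

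**Figure D2:**
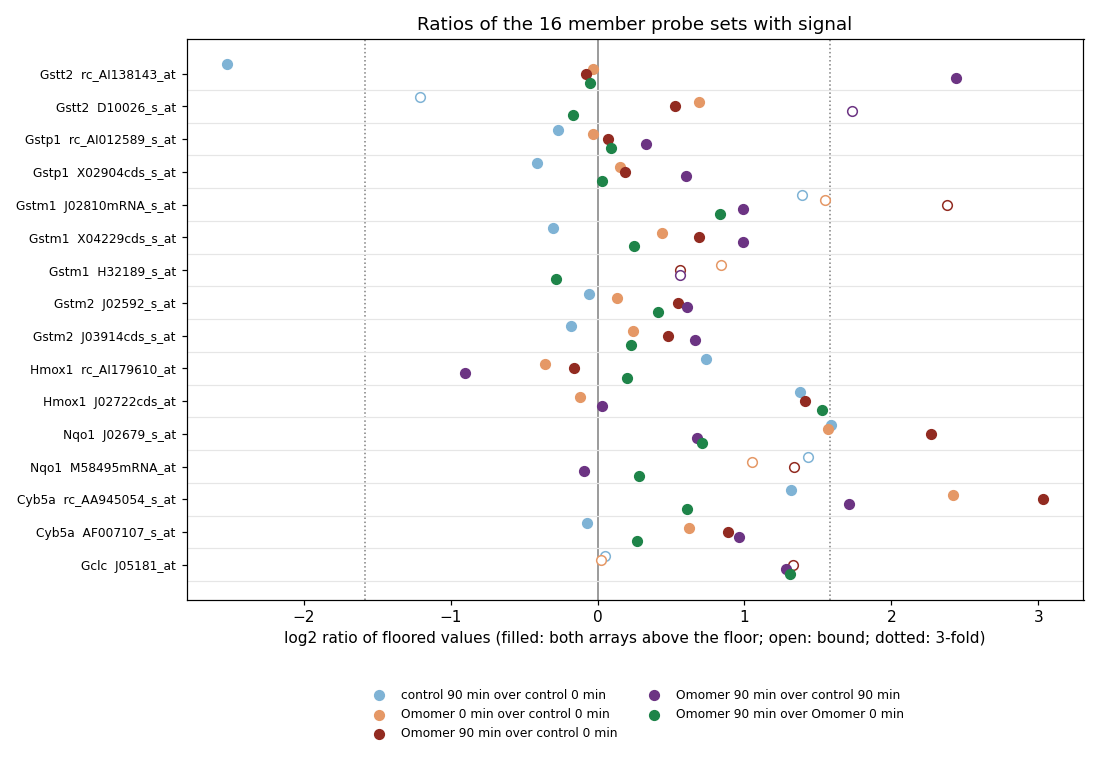
Log2 ratios of floored values for the 16 member probe sets with at least 1 array above the floor, in 5 comparisons marked by colour. Filled points have both arrays above the floor, open points are bounds, and dotted lines mark 3-fold; the lowest point is Gstt2 in stimulated over starved control cells (-2.52) and the highest is Cyb5a in stimulated Omomer over starved control cells (3.03).

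Taken by comparison, the members that reached 3-fold were few. A probe set was counted as called when its ratio was at least 3-fold, the threshold named in the methods of the study, and the background is the share of all probe sets with a ratio that were called. In stimulated Omomer over stimulated control cells, 3 of 16 member probe sets with a ratio were at least 3-fold higher, both of Gstt2 and 1 of Cyb5a, beside a background of 2.22%, and 0 of 16 lower by that much, beside 8.57%. In stimulated Omomer over starved control cells, 3 of 16 were higher, 1 each of Gstm1, Nqo1 and Cyb5a, beside 2.8%, and 0 lower, beside 9.95%. In starved Omomer over starved control cells, 1 of 16, Cyb5a, was higher, beside 0.251%, and 0 lower, beside 0.503%. In stimulated over starved control cells, 1 of 15, Nqo1, was higher, beside 1.93%, and 1, Gstt2, lower, beside 1.81%. In stimulated over starved Omomer cells, none of 16 was higher, beside 2.9%, or lower, beside 9.65%. Since these values had part in the choice of genes, nothing is read from the counts. None of the 18 belongs to the 5 series of expressed sequence tags (IDs beginning rc_AA89, rc_AA87, rc_AA85, rc_AA80 or rc_AA79) that hold most of the lower probe sets of the array of stimulated Omomer cells. Without those series the background of lower probe sets was 3.3% in stimulated Omomer over stimulated control cells. It was 4.36% in stimulated Omomer over starved control cells and 3.7% in stimulated over starved Omomer cells. The background of higher probe sets was then 2.57%, 3.38% and 3.55% in the same order. Just inside the threshold was Nqo1 at 3.02-fold in control cells with serum, and just outside it was Nqo1 at 2.96-fold in starved Omomer over starved control cells.

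The median log2 ratio over the 16 member probe sets in Omomer over control cells was 0.67 at 90 min and 0.34 at 0 min, against 0.18 and 0.01 over all probe sets with a ratio. At 0 min it was 0.20 over the 12 members with both values above the floor, against 0.01 over all 3475 such probe sets. With serum it was 0.26 in Omomer cells and, over 15 probe sets, -0.06 in control cells, against 0.09 and -0.07 over all. Where both values passed the floor, probe sets were brighter in general on the array of stimulated Omomer cells: the median of all 2812 such probe sets was 0.32 in stimulated Omomer over stimulated control cells, beside 0.67 for the 14 members among them. Of the 16, 11 had their highest value on this array, as had 42.9% of the 4428 probe sets that lay above the floor anywhere.

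**Figure D3:**
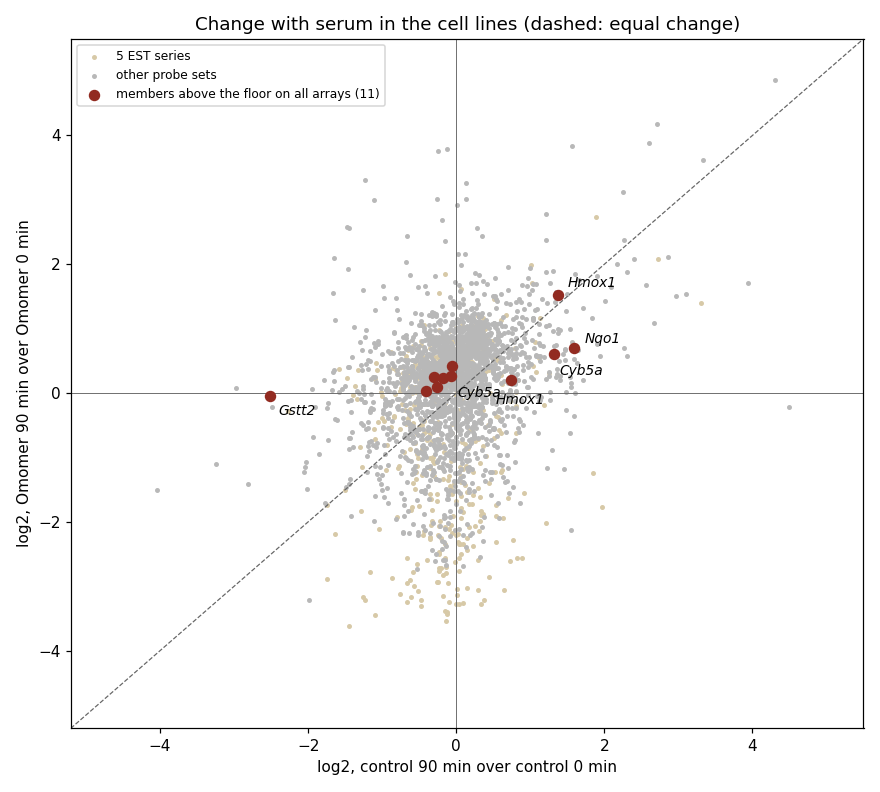
Log2 ratio of 90 over 0 min of serum in Omomer cells (vertical) against control cells (horizontal) for the 2600 probe sets that passed the floor on every array; large points are the 11 members among them, and the dashed line marks equal change. Gstt2 lies at -0.05 and -2.52, Nqo1 at 0.71 and 1.59, and Hmox1 by its upper point at 1.53 and 1.38.

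The genes most like 3 members were then sought, those with the largest ratios among members whose brightest probe set passed the floor on all 4 arrays. Gstm1, at least 5.22-fold higher by a probe set under the floor in starved control cells, was thereby left out. Likeness was taken as the distance between 3 log2 ratios over starved control cells, among 1605 genes whose brightest probe set passed the floor on every array. Nearest to Gstt2 were Adgrl2, an adhesion G protein-coupled receptor, at a distance of 0.63, Fbxo38 at 0.89 and Dab2, an endocytic adaptor, at 0.97. Adgrl2 had 9557 and 11146 in stimulated and starved Omomer cells, and 2810 and 10520 in stimulated and starved control cells. Nearest to Nqo1 were Trib3, a stress-induced pseudokinase, at 0.66, Cyc1, cytochrome c1, at 0.81 and Odc1, ornithine decarboxylase, at 0.83. The Cyc1 probe set belongs to the 5 series of expressed sequence tags. Nearest to Cyb5a was Nqo1 itself, at 1.18, before Psat1, an enzyme of serine synthesis, at 1.45 and Trib3 at 1.63. Each distance holds for the brightest probe set alone, and the second probe sets of Gstt2, Nqo1 and Cyb5a had other ratios. By the brightest Cyb5a probe set the log2 ratios were 3.03 in stimulated Omomer, 2.42 in starved Omomer and 1.32 in stimulated control cells. By the second they were 0.89, 0.62 and -0.07. The likeness is therefore that of a probe set and not of a gene. With 4 arrays such distances describe these arrays only.

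As background, 5 lists of related genes, 139 probe sets of 72 genes, were set beside the members: glutathione synthesis and recycling, other glutathione transferases and peroxidases, thioredoxins, peroxiredoxins and radical defence, the Nrf2 pathway and NADPH supply, and microsomal electron transfer. In stimulated Omomer over stimulated control cells, 1 of 99 probe sets with a ratio reached 3-fold upward (1.0%, beside 2.22% of all probe sets) and 9 downward (9.1%, beside 8.57%). Of the 9, 7 belonged to the 5 series of expressed sequence tags, which held 13 of the 99. The median was 0.32. In stimulated Omomer over starved control cells 0 of 102 reached 3-fold upward (beside 2.8%) and 11 downward (10.8%, beside 9.95%). In stimulated over starved Omomer cells 1 did so upward (1.0%, beside 2.9%) and 12 downward (11.8%, beside 9.65%). Of these, 8 of the 11 and 8 of the 12 lay in the 5 series. In stimulated over starved control cells 3 of 102 reached 3-fold upward (2.9%, beside 1.93%) and 0 downward (beside 1.81%). In starved Omomer over starved control cells none of 99 reached 3-fold upward (beside 0.251%) or downward (beside 0.503%), shares too small for this to say much.

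The median of the other transferases and peroxidases in stimulated Omomer over stimulated control cells was 0.53 over 18 probe sets, with 0 higher and 1 lower by 3-fold. For this and the other lists the background in this comparison was 2.22% higher and 8.57% lower. Gsta1, of the alpha class, had log2 ratios of 1.04, 0.95 and 0.79 by 3 probe sets of a shared design, and Mgst1, the membrane-bound transferase, had 26702 in stimulated Omomer and 13722 in stimulated control cells, 1.95-fold higher. Gpx7, a peroxidase, was at least 3.32-fold lower, with 387 in stimulated Omomer and 3482 in stimulated control cells, by a probe set of the 5 series. Gpx1, the main cytosolic glutathione peroxidase, was the 1 called higher in stimulated over starved Omomer cells, 4.45-fold by X07365_s_at with 10161 and 2285, while X12367cds_s_at gave 1.57-fold. By X07365_s_at stimulated and starved control cells had 6517 and 6027, so that starved Omomer cells were 2.64-fold below starved control cells. X12367cds_s_at had 4436 in starved Omomer and 4444 in starved control cells. For glutathione synthesis and recycling the median was -0.28 over 9 probe sets, with none at 3-fold. The glutathione synthetase Gss was at least 3.30-fold higher with serum in control cells by L38615_g_at, with 3455 at 90 min and -290 at 0 min. In Omomer cells this probe set had 2847 and -310, at least 2.72-fold higher with serum. By L38615_at, Gss was at least 2.13-fold higher with serum in control cells and under the floor on both Omomer arrays. Gclm, the modifier subunit that pairs with Gclc, was 1.55-fold lower with serum in control cells by S65555_at.

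For thioredoxins, peroxiredoxins and radical defence the median at 90 min was -0.03 over 24 probe sets, with 0 higher and 6 lower by 3-fold, beside 2.22% and 8.57% of all probe sets. Of the 6, 4 belonged to the 5 series. These 4 were both probe sets of Prdx3, a mitochondrial peroxiredoxin, at least 4.09-fold and at least 3.28-fold lower, 1 of Txnl1, a thioredoxin-like protein, 4.25-fold lower, and 1 of Txnrd1, at least 15.9-fold lower. The IDs of both Prdx3 probe sets name the same sequence. Txnrd1, the cytosolic thioredoxin reductase and like Nqo1 a textbook Nrf2 target, was higher with serum in control cells by both probe sets, 4.94-fold by U63923_at and 3.88-fold by rc_AA891286_at. In Omomer cells the probe sets went apart, with 3227 at 90 min and 2155 at 0 min by U63923_at, 1.50-fold higher, and 951 and 4633 by rc_AA891286_at, at least 4.42-fold lower. This second probe set belongs to the 5 series. U63923_at, outside them, was also lower in stimulated Omomer than in stimulated control cells, 2.59-fold, with 3227 and 8342. Selenop, a selenium carrier, was 4.30-fold lower in stimulated Omomer than in stimulated control cells, with 6976 and 30008, by a probe set outside the 5 series. The sixth, also outside them, was M25157mRNA_i_at of Sod1, the cytosolic superoxide dismutase, at least 3.05-fold lower with -3882 in stimulated Omomer and 3202 in stimulated control cells, while its other probe sets M21060_s_at and Y00404_s_at gave log2 ratios of -0.09 and 0.52. Sod2, the mitochondrial superoxide dismutase, was 2.33-fold higher at 90 min and 2.16-fold higher at 0 min in Omomer than in control cells.

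In the Nrf2 and NADPH list the median at 90 min was -0.15 over 23 probe sets, with 0 higher and 2 lower, Taldo1 and Akr7a2, both in the 5 series. In stimulated over starved Omomer cells, Idh1, an NADPH-producing dehydrogenase, was at least 5.13-fold lower by a probe set of these series, and Me1, malic enzyme, at least 3.56-fold lower by rc_AI008020_at. Other probe sets of Me1 gave smaller log2 ratios, -0.23 by rc_AI171506_at, -0.34 by rc_AI171506_g_at and, as a bound, -0.86 by M26594_at. Nfe2l2, the gene of Nrf2 itself, was lowest in stimulated Omomer cells by both probe sets, which lie outside these series. Their IDs name the same sequence, so they are not independent of each other. By rc_AI177161_at it had 1554 and 5536 in stimulated and starved Omomer cells, and 4412 and 6920 in stimulated and starved control cells, and by rc_AI177161_g_at it had 4075, 9464, 8238 and 12083. Relative to starved control cells the first was 4.45-fold and the second 2.97-fold lower in stimulated Omomer cells. In the list of microsomal electron transfer, which holds partners of cytochrome b5, the median was 0.55 over 25 probe sets, with 1 higher and 0 lower. That 1 was Scd2, a fatty acid desaturase that takes electrons from cytochrome b5, at least 3.07-fold higher by S75730_at. This probe set had 3214 and 2912 in stimulated and starved Omomer cells, and 914 and 2081 in stimulated and starved control cells. The 4 other probe sets of Scd2 with a ratio gave log2 ratios between -0.84 and 1.56. With serum, Scd2 probe sets gave log2 ratios, some of them bounds, from -1.48 to -0.99 in control cells and from -2.09 to 0.23 in Omomer cells. By U67995_s_at, outside the 5 series, Scd2 was called lower in stimulated Omomer cells, at least 3.96-fold over starved control and at least 4.25-fold over starved Omomer cells.

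**Figure D4:**
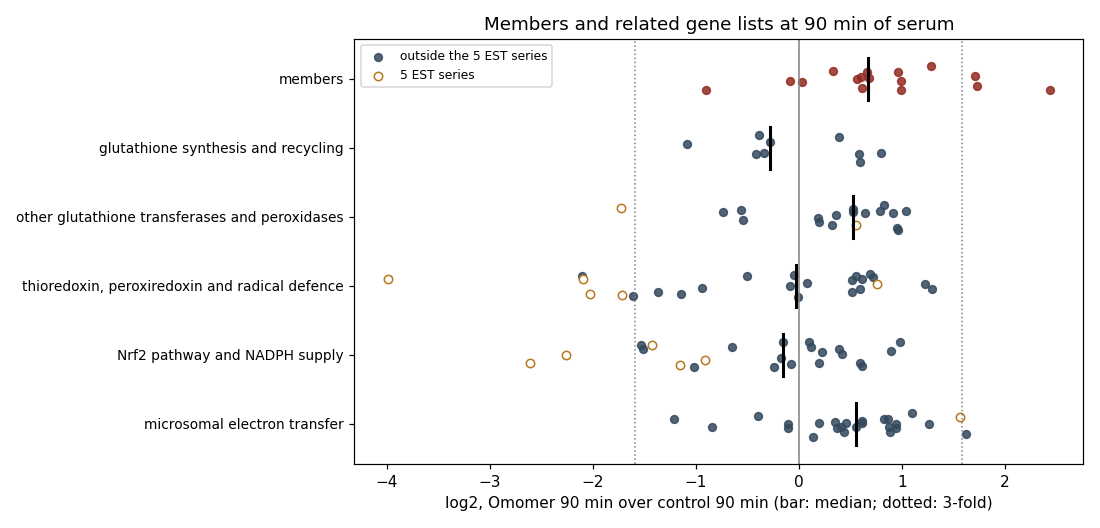
Log2 ratios of stimulated Omomer over stimulated control cells for the members (top row, red) and the 5 related gene lists; each point is a probe set with at least 1 of both arrays above the floor, open points belong to the 5 series of expressed sequence tags, bars are medians and dotted lines mark 3-fold. The members have a median of 0.67 and none at least 3-fold lower, while the lists hold 9 probe sets at least 3-fold lower, 7 of them open points.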

How the data were processed

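The authors hybridized RNA of each condition to 1 Affymetrix RG-U34A array and computed average differences with MAS 4 at default settings. The deposited values are linear intensities, some of them negative. With control probe sets left out, their medians were 497 and 668 in stimulated and starved Omomer cells. In stimulated and starved control cells they were 601 and 662. Probe sets were named through the platform annotation: of 8740, 7006 had 1 symbol, 308 several and 1426 none. Values under the floor (1048, 2 times 1.4826 times the median size of all values below 0) were raised to it for all ratios. A probe set under it on both arrays has no ratio, and a ratio against a floored value is a bound. The threshold was 3-fold. With 1 array per condition no test was run, and precision is limited by the number of arrays. The members and the gene lists were chosen with earlier results of these data known. The text names all probe sets of the members, list genes at 3-fold, and the 3 nearest genes of the 3 members with the largest ratios among those whose brightest probe set passed the floor on every array. Of the 2 highest and 2 lowest list genes per comparison, which the rule also names, only examples are given, chosen after their values were seen. Alternatives tried were other floors, 2 scalings, another form of the fold and other choices of probe sets. The ratio calculation was checked on simulated data, with changes planted only in bright probe sets of a single comparison. Recovery of changes near the floor was not checked. Python 3.11.15, numpy 2.4.6 and pandas 2.3.3 were used.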

Additional observations from a re-analysis of the deposited data

How the results depend on the processing

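No paired analysis was possible because each condition has 1 array. Other settings (floors of 524 and of 4 noise SDs, each array's own floor, median scaling, quantile normalization and the difference form of the MAS 4 fold) and 2 choices of probe sets were tried. Of 464 recomputed member ratios, 453 stayed on their side of 3-fold, 4 dropped under it, 7 passed it and 0 of the called ones changed sign. Few of these ratios were called in the main setting and many lay far from 3-fold, so the 453 says little about how stable the calls are. The count of members at least 3-fold higher was 2 rather than 1 in control cells with serum at a floor of 524 and with the difference form, 2 rather than 1 in starved Omomer over starved control cells at a floor of 524, with quantile normalization and with the difference form, and 1 rather than 0 in Omomer cells with serum under quantile normalization (Hmox1). At a floor of 4 noise SDs it was 2 rather than 3 in stimulated Omomer over starved control cells, where Gstm1 dropped out, and 2 rather than 3 in stimulated Omomer over stimulated control cells, where a Gstt2 probe set (D10026_s_at) did. Without the 11 probe sets whose IDs end in _s_at it was 0 in control cells with serum, 0 in starved Omomer over starved control cells, 0 in stimulated Omomer over starved control cells, and 1 (Gstt2) in stimulated Omomer over stimulated control cells, since most calls rest on such probe sets. Cyb5a in stimulated Omomer over stimulated control cells was 1.56 on the log2 scale with quantile normalization, under 3-fold. The median over the members with serum in control cells was -0.06, and 0.04 with quantile normalization.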
